A study of Mus musculus with 10 samples.

Results

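Genes of the extracellular matrix and of basement membranes were examined in newborn mice (postnatal day 0), whose whole brain RNA had been measured on 10 Affymetrix MG-U74Av2 arrays. The members are the probe sets with 1 gene symbol that belongs to a collagen, laminin, fibulin, fibrillin, nidogen, Timp or Mmp gene or to Bgn, Dcn, Lum, Hspg2, Fn1, Sparc or Aebp1. They came to 97 probe sets of 68 genes, out of 10833 probe sets of 8251 genes with 1 symbol. A probe set is a group of short probes that together report 1 transcript, and its value is an intensity, the brightness of its spots on a linear scale. The series compares mice with a single X chromosome (39 chromosomes, XO) with XX females (40 chromosomes), as its title states for whole brain gene expression. The cross written C57BL/6J x C3H/Paf gave the XmO mice, whose X is maternal by their name, and the XX_Paf females. Each of these groups has 3 arrays (XmO replicates 1, 2 and 7; XX_Paf replicates 1, 2 and 3). The other cross, In(X)/C3H x C57BL/6J, gave the XpO mice, whose X is paternal by their name, and the XX_InX females. These have 2 arrays a group (XpO replicates 15 and 18; XX_InX replicates 1 and 19). Both crosses thus join C57BL/6J with C3H chromosomes. The labels do not say which parent is the mother, whether the XX_InX females carry In(X), or whether an array holds 1 animal or a pool. If arrays of a group share animals, the p-values measure only the spread between these samples, which may be technical. Below, the values of a group are listed in the order of its replicates, and means are given ± SD.

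The extracellular matrix is the network of secreted proteins that surrounds cells. Fibrillar collagens form the cables of connective tissue, while basement membranes are thin sheets built on networks of collagen IV and laminin, tied together by nidogens and perlecan (Hspg2). Neural tissue itself holds little fibrillar collagen: in the brain, fibroblasts of the meninges make collagens I and III with decorin and lumican, and the vessels are wrapped in a basement membrane of collagen IV, laminins, nidogens and perlecan made by endothelial cells and pericytes. RNA of the whole brain mixes these sources with neurons and glia, so that fewer cells of a type and less RNA per cell cannot be told apart.

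Promoter windows are shown for Col4a2 and Hspg2. Col4a1 and Col4a2 encode the chains of the main collagen IV and share a promoter. Of the Col4a1 window only the bases that it shares with Col4a2 are printed. For Hspg2, XO and XX levels differed in opposite directions in the crosses. The windows are those of RefSeq on build GRCm38.p6, from 250 bases before the transcription start to 50 after it, and are printed 5′ to 3′ on the gene's strand. The genes Col4a1 and Col4a2 lie head to head, and their windows overlap. The Col4a2 window is at chr8:11312555-11312854 (plus strand) and the Col4a1 window at chr8:11312777-11313076 (minus strand), and the 78 bases in both (chr8:11312777-11312854) are in capitals. The Hspg2 window is at chr4:137468553-137468852 (plus strand), and capitals mark its 5 matches to GGGCGG, the core of a GC box.
Col4a2: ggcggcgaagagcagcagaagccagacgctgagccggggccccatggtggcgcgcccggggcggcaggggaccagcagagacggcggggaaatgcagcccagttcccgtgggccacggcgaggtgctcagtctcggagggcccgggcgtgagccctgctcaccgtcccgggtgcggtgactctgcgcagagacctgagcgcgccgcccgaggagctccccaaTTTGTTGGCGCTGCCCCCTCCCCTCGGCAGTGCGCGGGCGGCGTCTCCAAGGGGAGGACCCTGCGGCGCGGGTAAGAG
Hspg2: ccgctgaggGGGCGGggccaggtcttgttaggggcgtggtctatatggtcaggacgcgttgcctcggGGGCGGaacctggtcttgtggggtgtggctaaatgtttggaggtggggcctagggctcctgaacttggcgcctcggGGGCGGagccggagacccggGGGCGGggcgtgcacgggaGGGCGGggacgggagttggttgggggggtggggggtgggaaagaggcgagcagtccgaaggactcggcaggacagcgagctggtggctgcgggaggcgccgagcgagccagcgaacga
Of the 68 member genes, 46 had at least 1 window, 53 windows in all. Searched on both strands and counted whether or not motifs overlap, GGGCGG was in 28 of the 53 member windows (52.8%) and in 35.7% of all 32851 windows. Of all windows, 2.71% held at least as many matches as that of Hspg2. CCAAT was in 17 member windows (32.1%, against 37.4% of all) and TATAAA in 11 (20.8%, against 13.6%). A match describes the letters of the window and not a site in use.

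The labelled tissue was checked against 8 measured neural genes, which were above background on all 10 arrays. Background was taken on each array as the brightest of 9 probe sets for Y-linked genes, absent from these mice, although some may detect X-linked relatives; it ran from 33.6 on XpO 15 to 136.6 on XmO 7. Of the 68 member genes, 38 had their brightest probe set above background on all arrays, 19 on 1 to 9 arrays and 11 on none. The 11 were Col4a3 and Col4a4, chains of specialised collagen IV networks, Col11a2, Col17a1 and Col22a1, and the matrix metalloproteinases Mmp3, Mmp7, Mmp8, Mmp9, Mmp10 and Mmp24. By role, all 6 tested fibrillar collagens were above background on every array, as were 8 of 19 basement membrane genes, 10 of 16 other collagens, 8 of 9 glycoproteins and proteoglycans, and 6 of 16 proteinases and inhibitors. After the filter on dim probe sets, 64 probe sets of 52 member genes were tested among 8695 probe sets of all kinds. Intensities do not rank genes against each other, since probe sets differ in their response.

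**Figure D1:**
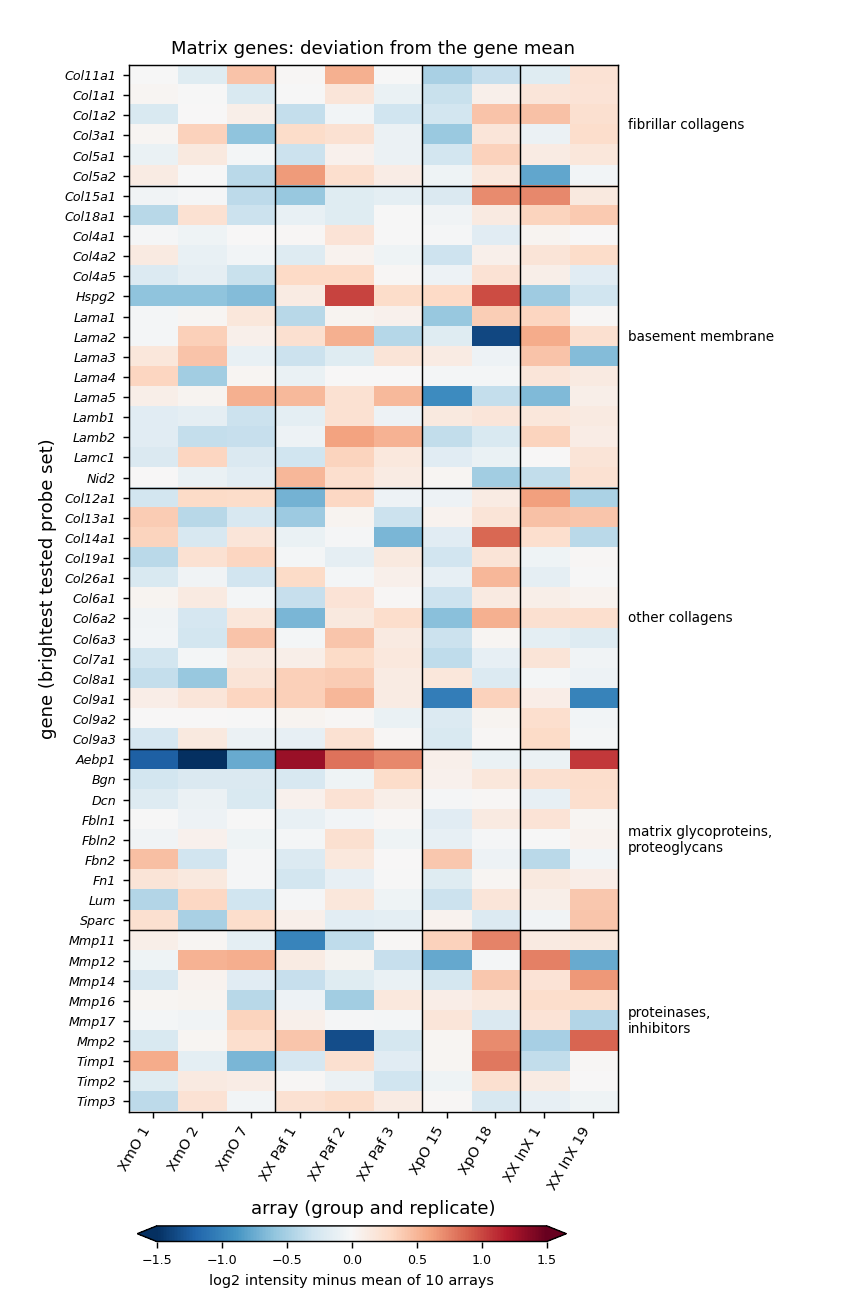
Log2 intensity of the brightest tested probe set of each of 52 matrix genes on each of 10 arrays, minus that gene's mean over the arrays (colour scale, log2 units), grouped by role. Lamb2 is the only row with XO below or above all XX arrays in the same direction in both crosses, and XpO 18 differs from XpO 15 in many rows.

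No matrix gene passed the test in any comparison. With limma, 0 of 64 member probe sets had an adjusted p under 0.05 in each of the 6 contrasts, and few probe sets of any kind were called. Of all 8695, this share was 0.0115% for XO against XX over both crosses, 0.0230% within the Paf cross (XmO against XX_Paf) and 0.0115% within the In(X) cross (XpO against XX_InX). It was 0.0115% for XmO against XpO, 0.0230% where the crosses' effects were set against each other, and 0.0805% for XX_Paf against XX_InX. Values below therefore describe estimates that did not pass. At an unadjusted p under 0.05, 4 member probe sets (6.25%, all lower in XO) stood against a background of 2.60% for XO against XX, where the members were Aebp1, Lamb2 and second probe sets of Col18a1 and Col1a1. Within the Paf cross it was 5 (7.81%, all lower in XmO) against 5.53%, and within the In(X) cross 4 (6.25%, 2 in each direction) against 3.38%. These background shares count both directions together, and no share by direction was counted. XmO and XpO differed at this level for 7 (10.9%) against 4.83%, the crosses' effects for 6 (9.38%) against 5.91%, and the XX groups for 9 (14.1%) against 13.8%.

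Groups whose arrays do not overlap are also common in so small a design. Over both crosses, 1 member probe set (1.56%, Lamb2) had XO arrays apart from XX arrays in the same direction within each cross, against 0.851% of all probe sets. In XmO against XX_Paf 8 members did not overlap (12.5%, all lower in XmO; background 13.9%), and in XpO against XX_InX 22 did not (34.4%; background 23.4%). Of those 22, 18 were lower in XpO (28.1%), against 12.1% of all probe sets. The other background shares here count both directions together, also where all members were lower. A share by direction was counted for XpO against XX_InX only. In XmO against XpO it was 15 (23.4%; background 17.4%), and in XX_Paf against XX_InX 24 (37.5%; background 37.1%). Effects of opposite sign with no overlap in either cross were seen for 2 members (3.12%; background 2.02%).

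Perlecan (Hspg2), the large heparan sulfate proteoglycan of basement membranes, showed opposite differences in the crosses. Its intensity was 134, 134 and 129 in XmO and 221, 411 and 246 in XX_Paf. It was 251 and 399 in XpO and 140.0 and 166 in XX_InX. XO arrays were thus below every XX array in the Paf cross and above every XX array in the In(X) cross, and the XmO and XX_InX arrays lay close to each other. The log2 fold change was -1.09 (SE 0.26; limma, adjusted p = 0.52) for XmO against XX_Paf and 1.06 (SE 0.32; adjusted p = 1) for XpO against XX_InX. The difference between these effects was -2.15 (SE 0.41, 95% interval -3.04 to -1.25; adjusted p = 0.391), and between XX_Paf and XX_InX it was 0.89 (SE 0.29; adjusted p = 0.228). XmO lay below XpO by a log2 value of -1.26 (SE 0.29; adjusted p = 0.436). On XmO 7 the value of 129 was under that array's background of 136.6. XX_Paf 2, which had the highest Hspg2, also had the highest sum of 12 skeletal muscle markers (5129, against 1393 to 2416 on the other arrays; 5 of the 12 were above background on all arrays, Tnni2 and Myh3 on none); their part in the result was not tested, and without that array the log2 fold change for XmO against XX_Paf was -0.82.

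Among laminins, Lamb2, which encodes the beta 2 chain found in vessel and synaptic basement membranes, was lower on all XO arrays than on the XX arrays of the same cross. It was at 113, 99.2 and 100.1 in XmO and 121, 193 and 183 in XX_Paf. In the other cross it was at 98.6 and 109 in XpO and 161 and 138 in XX_InX. The XO levels were close to each other in both crosses, at 104 ± 7.89 (n = 3) and 104 ± 7.14 (n = 2), and the value of XmO 7 was under background. The log2 fold change over both crosses was -0.58 (SE 0.21, 95% interval -1.04 to -0.13; adjusted p = 1), with -0.64 (SE 0.26) in the Paf cross and -0.52 (SE 0.32) in the In(X) cross. Leaving out single arrays moved the value over both crosses from -0.69 to -0.52.

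Lama2, the alpha 2 chain of muscle and vessel laminins, had differences that rested largely on 1 array. It was at 134, 175 and 143 in XmO, 161, 197 and 101 in XX_Paf, 120 and 52.7 in XpO, and 199.7 and 161 in XX_InX. The 52.7 of XpO 18 was under background and the lowest of all 10 arrays. XpO was below XX_InX by a log2 value of -1.17 (SE 0.42; adjusted p = 1), which was -0.58 without XpO 18 and -1.76 without XpO 15. Against XmO the log2 difference (XmO minus XpO) was 0.91 (SE 0.39), and 0.32 without XpO 18. Lama5, the alpha 5 chain of mature vessels, was at 92.6, 89.3 and 126 in XmO and 45.1 and 67.7 in XpO (log2 difference 0.88, SE 0.39). XmO 7 and XpO 18 were under their background for Lama5, and the difference was 0.58 without XpO 15 and 1.17 without XpO 18. XX_Paf held 122, 101.8 and 122, whereas both XX_InX arrays (54.9 and 92.3) were not above background. With XX_InX set at background, the geometric mean of XX_Paf was at least 1.15-fold higher (limma on the measured values, adjusted p = 0.445). The value of XX_Paf 2 was under the background of XX_InX 1 (102.9). Lamb1, the widespread beta 1 chain, was at 260, 265 and 234 in XmO and 323 and 329 in XpO (log2 difference -0.37, SE 0.18), by a probe set whose name marks it as shared with other sequences. A second, dimmer Lamb1 probe set overlapped between these groups, at 139, 133 and 197.5 in XmO and 168 and 149 in XpO. The gamma 1 chain Lamc1, part of most laminins, overlapped between groups in the Paf cross (404, 591 and 405 in XmO; 382, 595 and 526 in XX_Paf) and lay at 421 and 439 in XpO and 472 and 537 in XX_InX.

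Col4a1 and Col4a2, whose shared promoter bases are shown above, encode chains that assemble in 1 molecule. Col4a1 was at 1510, 1460 and 1529 in XmO and 1537, 1755 and 1524 in XX_Paf, and at 1505 and 1353 in XpO and 1562 and 1533 in XX_InX. Col4a2 was at 1594, 1342 and 1411 in XmO and 1274, 1508 and 1387 in XX_Paf, and at 1174 and 1540 in XpO and 1658 and 1763 in XX_InX. Both genes were lower on each XpO array than on each XX_InX array and overlapped in the Paf cross. For Col4a2 the log2 fold change of XpO against XX_InX was -0.35 (SE 0.16; adjusted p = 1), and -0.15 without XpO 15. The difference between the crosses' effects was 0.41 (SE 0.21). Deviations from group means over the 10 arrays correlated at -0.0473 for this pair (Pearson's r, a description), compared with 0.82 for Col6a1 with Col6a2, which also lie next to each other, and 0.713 for the neighbours Col3a1 and Col5a2. XpO 18 had the higher Col4a2 but the lower Col4a1 of the XpO arrays.

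Col15a1 and Col18a1 encode collagens of the outer face of basement membranes, the latter the source of endostatin. Both were lower in XX_Paf than in XX_InX: Col15a1 was at 107, 140 and 143 against 263 and 176, and Col18a1 at 654, 619 and 703 against 892 and 923. The log2 differences were -0.74 (SE 0.32; limma, adjusted p = 0.334) and -0.46 (SE 0.19; adjusted p = 0.304), and without XX_InX 1 that of Col15a1 was -0.45. The further tested Col18a1 probe sets, both dimmer, overlapped between the XX groups: one was at 159, 124 and 104 in XX_Paf and 100.5 and 160.1 in XX_InX, the other at 113, 101 and 66.7 and at 34.0 and 129.8. XmO arrays were at 153, 157 and 121 for Col15a1 and 528, 828 and 563 for Col18a1, and XpO arrays at 137 and 259.9 and at 682 and 771. Nid2, which links laminin to collagen IV, was at 156, 146 and 140.0 in XmO and 220.0, 186 and 169 in XX_Paf without overlap, and at 159, 109, 121 and 182 in XpO and XX_InX with overlap. Nid1 was too dim to be tested.

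**Figure D2:**
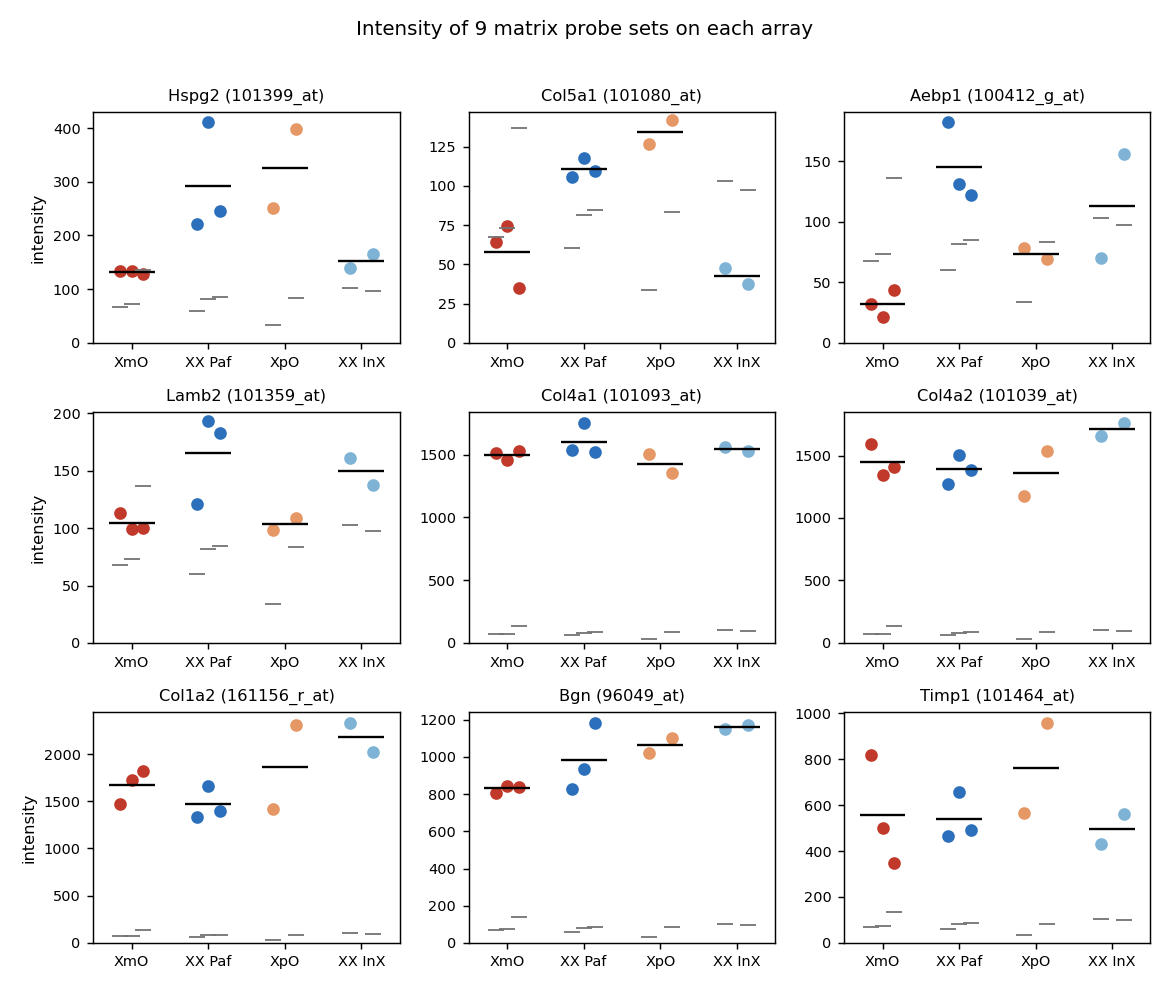
Intensity (linear axes from 0) of 9 probe sets of matrix genes, 1 point per array, by group; black bars are group means and grey dashes the background on each array, the brightest Y-linked probe set. Hspg2 is low in XmO and XX_InX, Lamb2 is lower in XO within each cross, Aebp1 is below background on all XmO arrays, and Col1a2 differs between XpO 15 and XpO 18.

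No fibrillar collagen had XO arrays apart from XX arrays in the same direction in both crosses. Col1a1, the alpha 1 chain of collagen I, was at 1150, 1125 and 961 in XmO and 1121, 1277 and 1051 in XX_Paf. It was at 891 and 1191 in XpO and 1282 and 1299 in XX_InX. XpO did not overlap XX_InX, but the XpO arrays lay further apart than the gap to XX_InX, and the log2 fold change of -0.32 (SE 0.17; adjusted p = 1) became -0.12 without XpO 15 and -0.53 without XpO 18. A second Col1a1 probe set was lower in the Paf cross among XO arrays and among XX arrays, although XX_Paf 2 lay above XpO 15: it was at 458, 282 and 294 in XmO, 422, 542 and 400 in XX_Paf, 534 and 769 in XpO, and 756 and 889 in XX_InX. There the log2 difference was -0.93 (SE 0.24; limma, adjusted p = 0.624) for XmO against XpO and -0.86 (SE 0.24; adjusted p = 0.185) for XX_Paf against XX_InX, where the brighter probe set had values that overlapped for XmO and XpO. Col1a2, the partner chain, was at 1466, 1727 and 1819 in XmO and 1338, 1664 and 1401 in XX_Paf, and at 1420 and 2310 in XpO and 2332 and 2027 in XX_InX. XX_Paf was below XX_InX by a log2 value of -0.57 (SE 0.19; adjusted p = 0.228). The difference between the crosses' monosomy effects was 0.45 (SE 0.27), which moved to 0.10 without XpO 15 and 0.80 without XpO 18. Its probe set is marked by the array's maker as not meeting all design rules. A second Col1a2 probe set, dimmer but above background on all arrays, differed less between the XpO arrays (655 and 706). It was at 539, 650 and 674.5 in XmO, 648, 650 and 625 in XX_Paf, and 742 and 735 in XX_InX. Its log2 fold change in the Paf cross was -0.05 (SE 0.13), against 0.19 (SE 0.17) for the brighter probe set.

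Col3a1, which forms thin fibrils with collagen I, overlapped between all groups compared: 444, 553 and 285 in XmO, 525, 510 and 407 in XX_Paf, 295 and 491 in XpO, and 408 and 519 in XX_InX. Col5a2, a chain of the collagen that starts fibrils, was at 329, 300.3 and 228 in XmO and 472, 359 and 328 in XX_Paf, and at 289.5 and 338 in XpO and 177 and 295 in XX_InX. XX_Paf exceeded XX_InX for Col5a2 by a log2 value of 0.74 (SE 0.26; limma, adjusted p = 0.249), or 0.37 without XX_InX 1. The crosses' monosomy effects differed by -0.89 (SE 0.36; adjusted p = 0.832), or -0.52 without XX_InX 1. Its partner chain Col5a1 gave different answers by probe set. The dim probe set was at 64.3, 74.6 and 35.1 in XmO, 106, 118 and 109.6 in XX_Paf, 127 and 142 in XpO, and 47.5 and 37.6 in XX_InX. XmO lay below XX_Paf and XpO above XX_InX without overlap, as for Hspg2, but only 1 of 3 XmO arrays and no XX_InX array was above background, so XpO was at least 1.34-fold higher than XX_InX. The brighter probe set was above background on all arrays and overlapped in both crosses, at 689, 819 and 724 in XmO, 593, 773 and 698 in XX_Paf, 611 and 939 in XpO, and 805 and 831 in XX_InX. Over the 10 arrays these probe sets correlated at -0.177 (log2 values). Col11a1, a fibrillar collagen of cartilage, was at 253, 224 and 342 in XmO and 181 and 201 in XpO (log2 difference 0.50, SE 0.25), and the difference was 0.32 without XmO 7.

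Of the other collagens, Col9a1 and Col26a1 stood out in 1 contrast each. Col9a1, a chain of the cartilage collagen IX, was at 453, 497 and 385 in XX_Paf and 378 and 175 in XX_InX (log2 difference 0.78, SE 0.37; adjusted p = 0.374), and without XX_InX 19 the difference was 0.23. It was at 377, 399 and 441 in XmO, and at 172 and 449 in XpO. Of 7 measured cartilage and bone markers, Matn1, Matn3 and Hapln1 were above background on no array and 2 were above it on all. Col26a1 was lower in XmO than in XX_Paf on all arrays (469, 532 and 453 against 673, 540 and 583), and in the In(X) cross XpO held 508 and 777 and XX_InX 502 and 552. The crosses' effects differed by -0.56 (SE 0.27; adjusted p = 0.832), and by -0.25 without XpO 18. The collagen VI genes Col6a1 and Col6a2, microfibril chains of fibroblasts, tracked each other. Col6a1 ran from 624 on XX_Paf 1 to 916 on XX_Paf 2 and Col6a2 from 204 to 475 over the 10 arrays, and each was low on XX_Paf 1 and XpO 15 (624 and 643; 204 and 212).

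Among proteoglycans and glycoproteins, decorin (Dcn), which binds collagen fibrils, was lower in XmO (770, 826 and 752) than in XX_Paf (919.5, 1017 and 937) on every array. The log2 fold change was -0.29 (SE 0.13; adjusted p = 0.877), while XpO (869.8 and 889) lay within the range of XX_InX (807 and 1048). Lumican (Lum), a related proteoglycan, overlapped in both crosses, at 177, 296 and 195 in XmO, 237, 269.6 and 229 in XX_Paf, 191 and 272 in XpO, and 254 and 318 in XX_InX. Aebp1, which encodes a collagen-binding protein of fibroblasts, was not above background on any XmO array (32.0, 21.4 and 44.1) and was above it on all XX_Paf arrays (183, 132 and 123). With XmO set at background, XX_Paf exceeded it by a factor of at least 1.63 for Aebp1 (limma on the measured values, adjusted p = 0.33), where the measured geometric means were 31.1 and 143. XpO (78.4 and 69.4) and XX_InX (70.4 and 156) were each above background on 1 of 2 arrays, and the suffix of this probe set marks probes that it shares with another probe set. Fibronectin (Fn1), which links cells to collagen, was at 994, 959 and 861 in XmO and 715, 797 and 864 in XX_Paf, and at 763 and 889 in XpO and 958 and 929 in XX_InX. Its estimates had opposite signs in the crosses and differed by 0.44 (SE 0.20; limma, adjusted p = 0.832). Sparc, a collagen-binding glycoprotein, overlapped in both crosses (856, 517 and 869 in XmO; 764, 649.7 and 657 in XX_Paf; 751 and 628 in XpO; 697 and 963 in XX_InX).

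Matrix metalloproteinases cut matrix proteins, and Timp proteins inhibit them. Mmp14, the membrane-bound protease that activates Mmp2, was at 717, 806 and 852 in XX_Paf and 1052 and 1434 in XX_InX (log2 difference -0.64, SE 0.20; limma, adjusted p = 0.219), or -0.41 without XX_InX 19. It was at 774, 946 and 809 in XmO and at 759 and 1211 in XpO. Mmp11, a stromal protease, was above XX_InX on both XpO arrays (139 and 184 against 121 and 123; log2 fold change 0.39, SE 0.38), and 0.19 without XpO 18. Mmp2 was near background, above it on 4 of 10 arrays, with 130.8 on XX_InX 19 as its highest value. Timp2 lay between 870.2 and 1257 on all arrays. Timp3, the inhibitor that binds to the matrix, was at 607, 929.5 and 779 in XmO and 937, 969 and 871 in XX_Paf, and at 807 and 675 in XpO and 731 and 767 in XX_InX. XX_Paf was above XX_InX without overlap for Timp3, and neither monosomy comparison was free of overlap.

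Of the members, 3 are X-linked, and none had XO arrays apart from XX arrays in both crosses. Biglycan (Bgn), a proteoglycan related to decorin, was at 808, 844 and 839.7 in XmO and 826, 934 and 1185 in XX_Paf, and at 1023 and 1105 in XpO and 1153 and 1173 in XX_InX. The log2 fold change was -0.22 (SE 0.14) in the Paf cross, -0.13 (SE 0.17) in the In(X) cross and -0.18 (SE 0.11, 95% interval -0.41 to 0.06; adjusted p = 1) over both. Without XX_Paf 3 it was -0.08 in the Paf cross and -0.11 over both, and without XpO 15 it was -0.07 in the In(X) cross. XmO was below XpO on all arrays (-0.36, SE 0.15; adjusted p = 0.969). A second, dimmer Bgn probe set, above background on all arrays, overlapped between these groups. It was at 410, 350 and 467 in XmO and 378 and 522 in XpO (log2 difference -0.13, SE 0.21). Col4a5, an alpha chain of a second collagen IV network, was at 136, 142 and 124 in XmO and 192, 193 and 158 in XX_Paf without overlap, and at 149 and 182 in XpO and 167 and 139 in XX_InX with overlap. Its log2 fold change was -0.43 (SE 0.22) in the Paf cross and 0.11 (SE 0.27) in the In(X) cross. Without XpO 18 the latter was -0.04. The Col4a5 value of 124 on XmO 7 was under that array's background of 136.6. Timp1, which lies within the span of the neuronal gene Syn1, was at 817, 502 and 346 in XmO and 465, 656 and 494 in XX_Paf. In the In(X) cross it was at 565 and 961 in XpO and 429.7 and 563 in XX_InX. The log2 fold change of Timp1 was -0.03 (SE 0.29) and 0.58 (SE 0.35; adjusted p = 1) in the Paf and In(X) crosses, and the latter was 0.20 without XpO 18. The former was -0.35 without XmO 1 and 0.27 without XmO 7.

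As a set, the matrix genes leaned towards lower estimates in XO, and the lean depended on single arrays, most of all those of XpO. Over both crosses 39 of 52 tested genes (75%) had a lower estimate, with a median log2 fold change of -0.08, against 49.8% of all 6458 tested genes and a median of 0.00. By role, lower estimates were found for 14 of 15 basement membrane genes (median -0.14), 4 of 6 fibrillar collagens (-0.12), 10 of 13 other collagens (-0.06), 7 of 9 glycoproteins and proteoglycans (-0.09) and 4 of 9 proteinases and inhibitors (0.08). None of these genes passed the test. In the Paf cross the split was 27 of 52 lower (median -0.03; all genes 50.1%), and in the In(X) cross 36 of 52 (median -0.15; all genes 52.1%). Without XpO 15, whose matrix levels were low, 28 of 52 genes were lower over both crosses (median -0.02) and 28 in the In(X) cross (median -0.04). Without XpO 18 it was 43 over both crosses (median -0.15) and 42 in the In(X) cross (median -0.26). Without XX_Paf 2 it was 33 over both crosses (median -0.06). The median deviation of member genes had an SD of 0.0997 between replicate arrays. That is a spread of single arrays and does not measure the precision of the medians above. In the In(X) cross the deviation was -0.144 on XpO 15 and 0.126 on XpO 18, and 0.13 and 0.0924 on the XX_InX arrays.

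**Figure D3:**
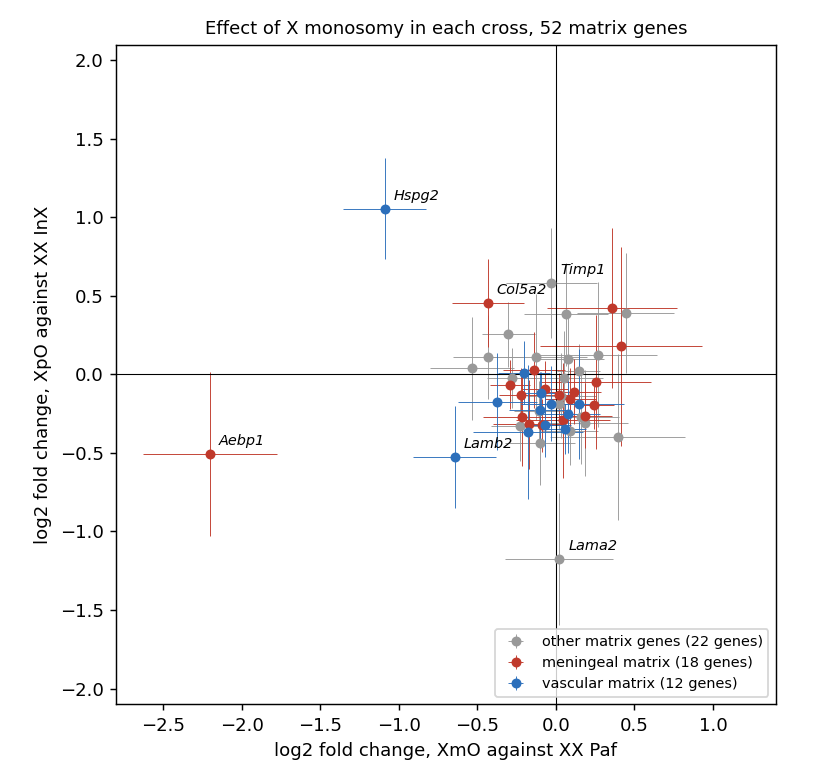
Log2 fold change of XmO against XX_Paf (horizontal) and of XpO against XX_InX (vertical) for 52 matrix genes, with bars of 1 standard error; red are meningeal, blue vascular and grey other matrix genes. Most genes lie within 0.5 of zero on both axes, with Hspg2 (-1.09 and 1.06), Lama2 and Aebp1 apart; the Aebp1 value rests on XmO arrays not above background.

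The meningeal and the vascular matrix were compared as lists of 18 and 12 tested genes. The meningeal list holds fibroblast genes such as Col1a1, Col3a1, Col6a1, Dcn and Lum, and the vascular list Col4a1, Col4a2, laminins, Nid2, Hspg2, Col15a1, Col18a1 and Sparc. Over both crosses 12 of 18 meningeal genes had lower estimates in XO (median log2 fold change -0.06). So did 12 of 12 vascular genes (median -0.13), against 49.8% of all tested genes. The vascular estimates of Hspg2 and Col15a1 were small, at -0.02 each. The difference of medians (meningeal minus vascular) was 0.07. The vascular count was 11 of 12 after quantile normalization and 10 to 12 without single arrays. Of markers of vessel walls, 6 of 9 mural genes (median -0.23) and 3 of 10 endothelial genes (median 0.04) had lower estimates in XO. So did 2 of 2 tested choroid plexus genes (median -0.60). The endothelial genes differed between crosses, with 3 of 10 lower in the Paf cross (median 0.23) and 7 of 10 in the In(X) cross (median -0.15). Of the meningeal fibroblast markers, 7 of 10 were lower over both crosses (median -0.18). It was 4 of 10 in the Paf cross (median 0.09) and 9 of 10 in the In(X) cross (median -0.195). The sum of the 9 mural markers, 4 of them above background on all arrays, ran from 1567 to 1955 in XmO, 1902.5 to 2145 in XX_Paf, 1974 to 1987 in XpO and 2174 to 2398 in XX_InX. That of 4 choroid plexus markers, of which Kl was above background on no array, ran from 1397 to 2662, 2496 to 3353, 1021 to 1959.9 and 2158 to 2274 in the same groups. Their part in the vascular values was not tested. The difference of medians was also 0.07 in the Paf cross, where 9 of 18 and 9 of 12 were lower (medians -0.03 and -0.10). In the In(X) cross it was 0.08, with 14 of 18 and 10 of 12 lower (medians -0.13 and -0.21). The same difference had an SD of 0.117 between replicate arrays, more than each of these values, although it is a spread of single arrays and not of group differences. For XmO against XpO it was -0.06 (11 of 18 and 5 of 12 lower, all genes 50.1%). For the crosses' effects it was 0.01. For XX_Paf against XX_InX it was -0.09 (12 of 18 and 7 of 12 lower, medians -0.18 and -0.09, all genes 52% lower). The sign in the In(X) cross depended on 1 library: it was 0.25 without XpO 15 and -0.07 without XpO 18. The count of lower meningeal genes there was 7 of 18 without XpO 15 and 17 of 18 without XpO 18.

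**Figure D4:**
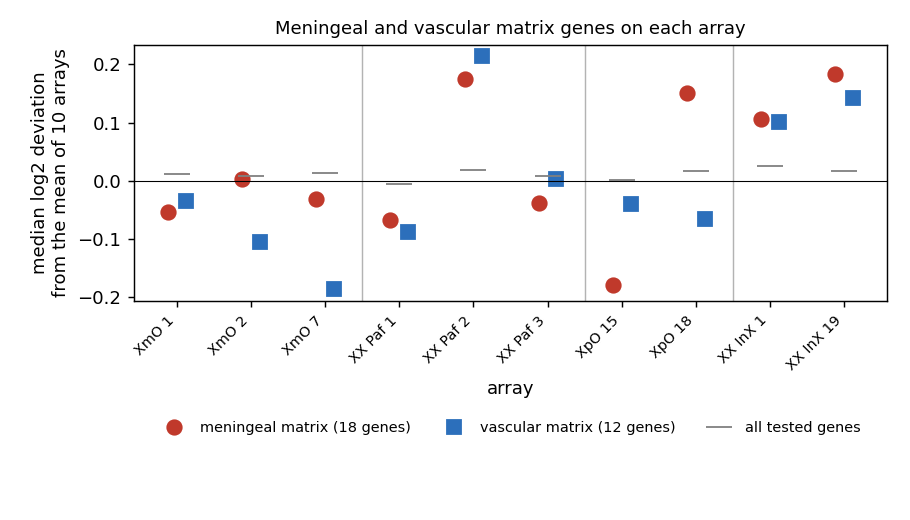
Median, over the genes of a list, of the log2 deviation from each gene's mean of 10 arrays, for meningeal (red circles, 18 genes) and vascular (blue squares, 12 genes) matrix genes on each array; grey dashes are the same over all tested genes. Meningeal genes lie at -0.18 on XpO 15 and 0.15 on XpO 18, while vascular genes lie at -0.04 and -0.07 there.

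The replicates of XpO differed in meningeal matrix more than the groups did. Of 52 member genes, 42 (80.8%) were higher on XpO 18 than on XpO 15, with a median log2 difference of 0.25, against 51.2% and 0.01 for all tested genes. Of the meningeal genes 17 of 18 (94.4%) were higher on XpO 18 (median 0.39), and of the vascular genes 9 of 12 (median 0.10). The summed intensity of 12 meningeal fibroblast markers was 19284 on XpO 15 and 24282 on XpO 18. In XmO it ran from 19102 on XmO 1 to 23875 on XmO 7. Between those XmO arrays 9 of 18 meningeal genes were higher on XmO 7 (median 0.03). The marker sum ran from 19802 to 21513 in XX_Paf and 25485 to 27295 in XX_InX. Of these markers 8 were above background on all arrays, and Foxc1, a defining one, on none. The part of meningeal tissue in the member values was not tested. The sum of 11 endothelial markers, of which 7 were above background on all arrays, was 3509 on XpO 15 and 4107 on XpO 18, and 4029.6 and 3903 in XX_InX. Between the XX groups, 9 of 10 tested meningeal fibroblast markers had lower estimates in XX_Paf (median -0.44), and the sum of 5 erythroid markers was 11720 to 16983 in XX_Paf against 4037 to 6203 in XX_InX. In the Paf cross, 37 of 52 members (71.2%) were higher on XX_Paf 2 than on XX_Paf 1 (median 0.17). The XmO pairs and the XX_InX pair had medians between -0.02 and 0.04.

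Deviations from the group means also described which genes moved together across arrays. The median of Pearson's r over the 1326 pairs of member genes was 0.134, against -0.000216 over pairs of all tested genes, and it was 0.276 within the meningeal list, 0.0668 within the vascular list and 0.373 among the fibrillar collagens. Collagen pairs such as Col1a1 with Col3a1 (0.829) and Col1a1 with Col1a2 (0.601) were at the upper end. These values rest on 10 arrays with shared scaling and are descriptions.

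Genes that process, bind or accompany the matrix proteins did not pass the test either. Of the collagen processing genes 12 were tested, of the matrix receptors 14 of 20 on the array and of other matrix genes 19 of 24, and 0 of them were called by limma in any contrast. Over both crosses, lower estimates in XO were found for 6 of 12 processing genes, 9 of 14 receptors and 7 of 19 other matrix genes, and an unadjusted p under 0.05 for 0, 0 and 1 of them. Serpinh1, the collagen chaperone Hsp47, was at 727, 557 and 634 in XmO and 809.5, 838 and 768 in XX_Paf, and at 847 and 848 in XpO and 813 and 778 in XX_InX. Crtap, part of the complex that hydroxylates collagen prolines, was at 681, 544 and 593 in XmO and 395, 487 and 443 in XX_Paf, and at 587 and 552 in XpO and 932 and 608 in XX_InX. XmO arrays were below XX_Paf for Serpinh1 and above it for Crtap, with the opposite order in the In(X) cross for both. Thrombospondin 3 (Thbs3), an adhesive glycoprotein, was at 862, 785 and 813 in XmO and 659, 555 and 587 in XX_Paf, while XpO (609 and 829) spanned XX_InX (692 and 625). Neurocan (Ncan), a proteoglycan of neural tissue itself, was at 1285, 1808 and 1203 in XmO, 1742, 2278 and 2129 in XX_Paf, 1385 and 889 in XpO, and 1364 and 1011 in XX_InX. Fibromodulin (Fmod), which regulates collagen fibrils, was at 132 and 383 in XpO and not above background in XX_InX (47.2 and 50.9), at least 2.25-fold higher in XpO, with the higher value again on XpO 18.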

How the data were processed

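The deposited values are intensity values on a linear scale, 1 for each array and probe set; how the authors made them is not given in the sources used here. Trimming 2% at each end leaves a mean of 500.3 on every array, a common scale set before deposit, and no further normalization was applied. Genes were named through GEO's platform annotation (1 symbol for 10833 of 12488 probe sets; 66 controls left out) and chromosomes through RefSeq on GRCm38.p6.

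Values under the 10th percentile (15) were raised to it, taken to log2, and the 8695 probe sets with a mean at or above the 30th percentile were tested with limma 3.58.1 in R 4.3.3 (lmFit, eBayes with trend, 1 mean per group, all 10 arrays, 6 residual degrees of freedom). The 6 contrasts were XO against XX with equal weight a cross, XO against XX within each cross, XmO against XpO, the difference of the within-cross effects, and the XX groups; p-values are two-sided, adjusted by Benjamini and Hochberg within a contrast, and called under 0.05. A gene is its probe set of highest mean. Where every array of a group was not above background, its fold is a bound: each dim array was set at the higher of its own value and its background. The bound compares geometric means and has no interval. The number of arrays limits the precision. The tests were checked on simulated data.

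Named genes are, in each contrast, called members, then up to 4 in each direction of smallest p without overlap. For the crosses' difference, within-cross estimates of opposite sign took the place of this overlap rule. The X-linked members and a fixed set (Col1a1, Col1a2, Col3a1, Col4a1, Col4a2, Lamc1, Nid1, Hspg2, Dcn, Lum, Fn1, Sparc, Mmp2, Timp3, Aebp1) are also named, with discordant second probe sets. Of the accompanying lists, up to 2 genes a direction are named. Members, lists and the rule were chosen with earlier results of these data known. Nid2, Col6a1, Col6a2 and Timp2 were singled out after their values were seen. Alternatives were the floor, the filter, quantile normalization, no trend, only the compared groups, a replicate block, the mean of a gene's probe sets and leaving out each array.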

Additional observations from a re-analysis of the deposited data

Results flagged for a closer look

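The difference between the crosses' monosomy effects was looked at again where every XO array lay on one side of the XX arrays in the Paf cross and on the other side in the In(X) cross. For Hspg2 this difference was -2.15 on the log2 scale (XmO minus XX_Paf, less XpO minus XX_InX), and limma's test of it did not pass over all probe sets (adjusted p = 0.391). Without single arrays it ran from -2.48 to -1.81, with a lowest adjusted p of 0.193.

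For the dim Col5a1 probe set the difference was -2.67 (adjusted p = 0.528), with values from -2.89 to -2.34 without single arrays. No XX_InX array and 1 of 3 XmO arrays were above background for it, and the brighter Col5a1 probe set overlapped in both crosses.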

How the results depend on the processing

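No member probe set was called by limma under any of 19 alternatives. Of 901 values of named member probe sets, 10 had another sign, and the lowest adjusted p was 0.0806. Without the filter, called probe sets of all kinds numbered 5 for the crosses' difference, 3 for XmO against XpO, 4 for XmO against XX_Paf, 5 for XO against XX, 7 for XpO against XX_InX and 17 for the XX groups. With the filter at the 50th percentile there was 1 for the crosses' difference, without a trend 0 there and 2 for the XX groups, and with only the compared groups 35 for the XX groups. The alternatives that kept all arrays left the median of member genes between -0.0919 and -0.08 for XO against XX. Leaving out single arrays gave 0 to 4 calls for the crosses' difference, 1 to 7 for XmO against XpO, 2 to 4 for XmO against XX_Paf, 1 to 3 for XO against XX, 1 to 4 for XpO against XX_InX and 2 to 17 for the XX groups. The causes were not tested.

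Same-numbered arrays showed little common deviation from their group means. Here r was -0.0123 for XmO 1 with XX_Paf 1, -0.0415 for XmO 2 with XX_Paf 2, 0.0317 for XmO 1 with XX_InX 1 and -0.121 for XX_Paf 1 with XX_InX 1. With so few arrays a group, these values cannot tell whether the numbers pair the samples, and the labels do not say. A random replicate block (consensus correlation -0.0505) left 0 called members, 1 called probe set for XO against XX, and a fixed replicate block gave 1 called probe set for XmO against XX_Paf and turned Timp1 there to 0.21.

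Leaving out single arrays moved the members' median from -0.0328 to 0.263 for the crosses' difference, -0.148 to 0.0973 for XmO against XpO, -0.0901 to 0.0051 for XmO against XX_Paf, -0.152 to -0.0247 for XO against XX, -0.259 to -0.037 for XpO against XX_InX and -0.149 to -0.0114 for the XX groups. The meningeal minus vascular value ran, in the same order, from -0.195 to 0.256, -0.21 to 0.221, 0.0244 to 0.192, 0.0328 to 0.186, -0.0746 to 0.247 and -0.147 to 0.0041. Signs turned for the second Col1a1 probe set in the crosses' difference (-0.33 to 0.20), Col4a5 in XpO against XX_InX (-0.0354 to 0.257) and Timp1 in XmO against XX_Paf (-0.35 to 0.27). Dim members near background carry the least precise values.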
